A study of Mus musculus with 4 samples.

Results

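The 38 genes described here encode transcription factors and nuclear cofactors of the developing inner ear. They were examined in organs of Corti that lost Tbx2, a T-box repressor expressed in the inner compartment, after hair cells and supporting cells had been specified. All 38 gene names were found among the 30011 gene names of the arrays, on 49 probes. A probe is a 60-base oligonucleotide on the array. Each gene was represented by its brightest probe, and 33 of the 38 genes had a probe bright enough to be tested.

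RNA levels were measured on 4 dual-colour arrays, in tissue from E18.5 embryos (E, embryonic day). The tissue was the basal part of the organ of Corti, where the sensory cells of the cochlea lie. Sox2-Tbx2LOF embryos had the genotype Sox2(creERT2);Tbx2(fl/fl) and controls the genotype Tbx2(fl/n.d.), in which the labels leave the other Tbx2 allele open. The crosses in the study's methods had parents homozygous for the floxed allele on both sides. All embryos were of strain NMRI and all dams received 4 mg of tamoxifen at E16.5, so that exposure to the drug was shared by both genotypes. By the study's methods, dams treated at this stage were given progesterone as well. In Sox2-Tbx2LOF embryos tamoxifen activates CreERT2, a recombinase knocked into the Sox2 gene, so that the floxed Tbx2 alleles can be recombined only in cells that express Sox2. According to the study's methods these embryos also carried an mTmG reporter allele. The dams of that cross were homozygous for the reporter, so that littermates without the recombinase carried it too. Controls lacked the recombinase. Controls therefore did not carry the Sox2 knock-in, and its effect cannot be told apart from that of Tbx2 loss. Every array held 1 pool of each genotype, made by pooling organs of Corti of 1 sex. Arrays 1 and 2 held female pools and arrays 3 and 4 male pools. The Sox2-Tbx2LOF pool was labelled with Cy3 on arrays 1 and 3 and with Cy5 on arrays 2 and 4, so that the dyes were swapped within each sex.

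Hair cells arise from SOX2-positive prosensory progenitors. ATOH1 starts their differentiation, and POU4F3 and GFI1 act downstream of it in hair cell maturation and survival. Before that, the otic placode and cochlea are shaped by PAX2 and PAX8, GATA3 and the EYA cofactors with their homeodomain partners, while DLX, HMX and OTX factors pattern the vestibular and non-sensory ear. NEUROG1 and NEUROD1 drive the formation of neuroblasts of the cochleovestibular ganglion. In whole tissue, fewer cells of a type and less RNA per cell cannot be told apart, which holds for every value below.

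Probe sequences are given for the members on which the results turn, so that each value can be tied to a stretch of transcript. The first 30 of their 60 bases are shown 5′ to 3′ in the sense of the transcript, with positions of the array files on the mouse build mm9. Exons are not annotated in the array files, so each probe is placed by its start within the transcript.
Isl1 (A_52_P337246): cccccaaagatgtgtatagttattggttaa
Gfi1 (A_55_P1977008): gtgagggttgtagacgttcctaaatcttct
Sox2 (A_52_P307739): tggcaatcaaatgtccattgtttataagct
Sall1 (A_55_P1977850): cctcttgatcaagagcaggtatagtgttgg
Six2, brightest probe (A_55_P2033308): ccattttacgccctcatgtgaatgttcgtc
Six2, second probe (A_51_P354224): ggtgtcatctatttgagttcctttctcaac
Six2, dimmest probe (A_55_P2119234): attgtctgaaagtctgtctggagaattcca
The Isl1 probe starts at base 2170 of its transcript (chr13:117088774-117088833, minus strand) and the Gfi1 probe at base 2757 (chr5:108145719-108145778, minus strand). For Sox2 the start is base 1846 (chr3:34550773-34550832, plus strand) and for Sall1 base 5061 (chr8:91551278-91551337, minus strand). The Six2 probes lie on the minus strand of chromosome 17. Of these, 2 match the Six2 transcript NM_011380 (chr17:86083634-86083693 and chr17:86083986-86084045). The dimmest one matches the cDNA AK142139 (chr17:86082307-86082366), to which the array files also give the name Six2.

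The arrays were alike in quality, with 70.4% to 75.2% of probe spots well above background per channel. The probe for the targeted gene Tbx2 gave log2 ratios of −0.06, −0.24, −0.02 and −0.30 on arrays 1 to 4. Its mean of −0.15 ± 0.14 (SD, n = 4) was below 0 on 4 of 4 arrays but did not pass the correction over all probes (limma adjusted p 0.313). Whether recombination removes this stretch of the transcript was not analysed here. Of the 4 IHC markers Fgf8, Cabp2, Slc17a8 and Otof, 3 (75%) were called lower, against 0.128% of all tested probes. The study had already reported Fgf8, Cabp2 and Slc17a8 as reduced on these same arrays, so this count is no independent check. Mean log2 ratios were −1.57 for Fgf8, −1.17 for Cabp2 and −0.66 for Slc17a8. Otof, at −0.40, changed by less than 1.5-fold. All 4 had a limma adjusted p under 0.05, against 0.982% of all tested probes in either direction. All 4 were lower on 4 of 4 arrays, against 4.62% of all tested probes.

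None of the 33 tested transcription factors changed by 1.5-fold or more between genotypes. A probe was called changed at a limma adjusted p under 0.05, corrected over all 28104 tested probes, and a fold change of at least 1.5. This held for 0 members, against 0.249% of all tested probes. Without the minimum fold, Isl1 was the only member to pass, and 1 of 33 members is 3.03%, against 0.982% of all tested probes in either direction and 0.445% with a higher level. At an unadjusted p under 0.05 there were 5 members (15.2%), Isl1, Gfi1, Sox2, Sall1 and Barhl1, against 7.11% of all tested probes. The mean log2 ratios of the 33 members ran from −0.24 for Gfi1 to 0.28 for Isl1. They were above 0 for 16 members and below 0 for 17. Their median was −0.001, beside 0.002 over all tested probes.

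The 95% confidence intervals come from the limma fit, after the dye term was removed and with each variance drawn toward that of all tested probes. They do not follow from the SD of a gene alone. Eya1 and Mycl had SDs of 0.78 and 0.02, but both had a standard error of 0.05. For all 33 tested members the interval lay within 1.5-fold in both directions, which was also the case for 99.4% of all tested probes. The outermost bounds among members were a log2 ratio of −0.35 for Gfi1 and 0.39 for Isl1. These correspond to a 1.27-fold lower and a 1.31-fold higher level. The sign was the same on 4 of 4 arrays for 6 members (18.2%), against 9.06% of all tested probes. Isl1, Sox2, Sox9 and Mycl were higher on all 4 arrays, as were 4.43% of all tested probes, while Gfi1 and Sall1 were lower on all 4, as were 4.62%. Channel levels of the genotypes did not overlap for 2 members, Isl1 and Sox2 (6.06%), against 2.54% of all tested probes.

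**Figure D1:**
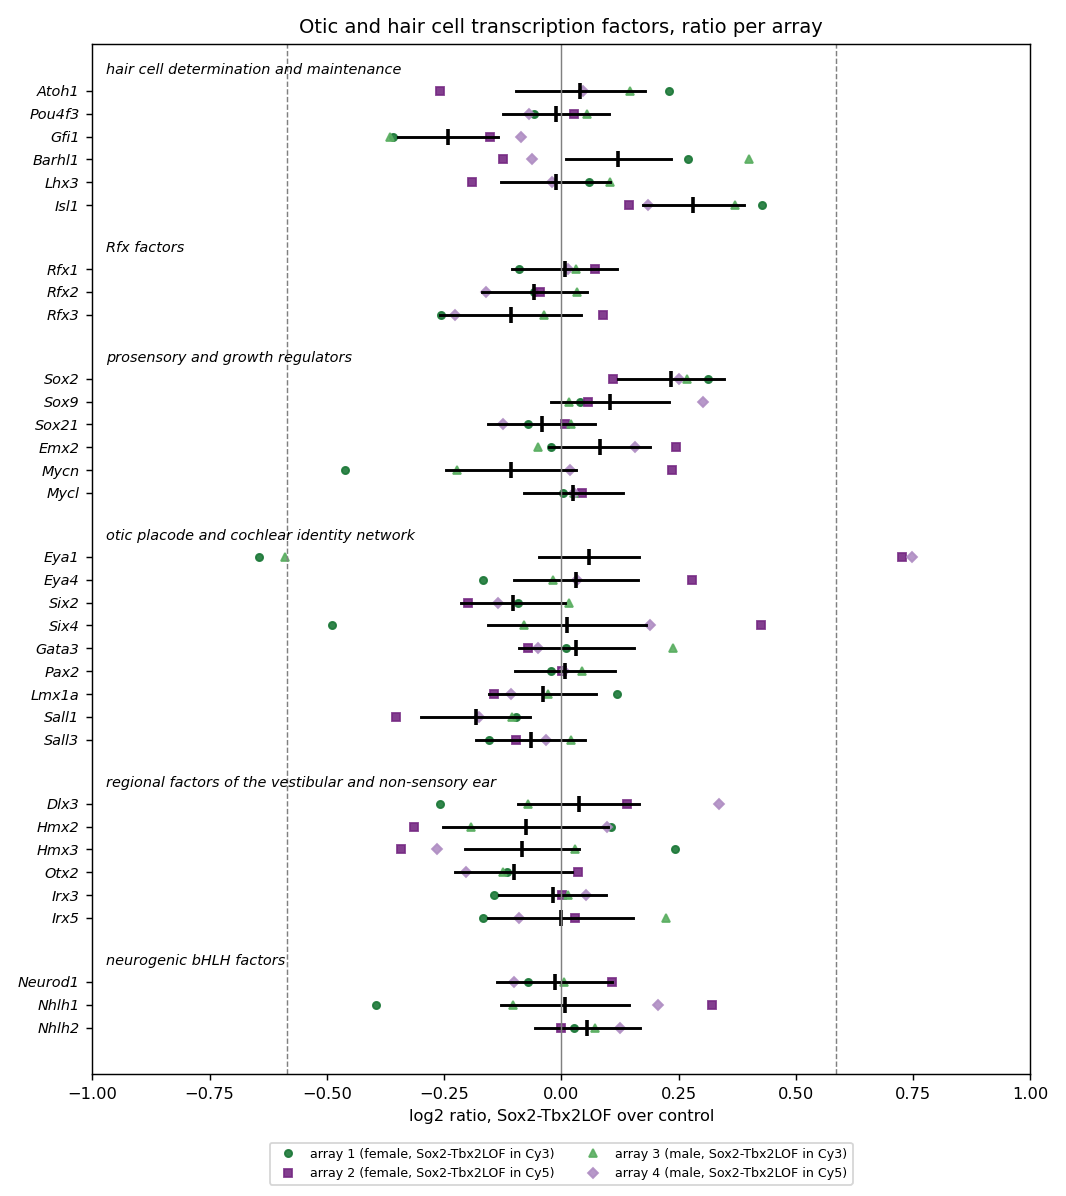
Log2 ratio of Sox2-Tbx2LOF over control (horizontal axis) for the 33 tested members, grouped by role. Each symbol is 1 array, the black tick is the mean of 4 arrays and the black line its 95% confidence interval, and dashed lines mark a 1.5-fold change. All intervals lie between the dashed lines, and Isl1, with a mean of 0.28, and Gfi1, with a mean of −0.24, are the outermost members.

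The group of hair cell determination and maintenance held the members with the smallest p-values. Isl1, a LIM-homeodomain factor of prosensory cells and otic neurons, rose by this test. Its log2 channel level was 13.93, 14.13, 14.02 and 14.07 in control pools 1 to 4 and 14.36, 14.28, 14.39 and 14.25 in Sox2-Tbx2LOF pools 1 to 4. Every Sox2-Tbx2LOF pool was above every control pool. The log2 ratios of 0.43, 0.15, 0.37 and 0.18 gave a mean of 0.28 ± 0.14 (SD, n = 4), which is 1.22-fold higher (95% confidence interval 1.13 to 1.31), with a limma adjusted p of 0.0323. The ratio was larger on both arrays with Sox2-Tbx2LOF in Cy3 than on both with it in Cy5. Over 13 alternative settings the log2 ratio of Isl1 stayed between 0.27 and 0.30. The adjusted p lay between 0.0212 and 0.279 there and was not under 0.05 in 7 of the 13. Of these, 3 left out array 1, 3 or 4.

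Markers of cell types in which Isl1 is also known were read beside it. None of the 6 neuronal markers passed the test, and their median log2 ratio was 0.02. The log2 of their summed level ran from 16.48 to 16.57 in Sox2-Tbx2LOF pools and from 16.46 to 16.52 in control pools. Of the 8 hair cell markers, 7 had a log2 ratio above 0 and 1, Tmc1, below 0, none was called and none had an adjusted p under 0.05. The limma unadjusted p was below 0.05 for 6 of the 8 (75%), Tmc1 among them, against 7.11% of all tested probes. On 4 of 4 arrays 5 were higher, while Tmc1 was lower, at a mean log2 ratio of −0.26. The median log2 ratio of the 8 markers was 0.14. The log2 of their summed level was 16.51 to 16.75 in Sox2-Tbx2LOF pools and 16.39 to 16.51 in control pools. The part of this difference in the values of the hair cell factors was not tested.

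Gfi1 encodes a zinc finger repressor needed for hair cell survival. Its log2 channel level was 12.56, 12.49, 12.60 and 12.31 in control pools and 12.20, 12.34, 12.23 and 12.23 in Sox2-Tbx2LOF pools. Sox2-Tbx2LOF was the lower pool on each array, but its pool on array 2 lay above the control pool of array 4, so the groups overlapped. The log2 ratios of −0.36, −0.15, −0.37 and −0.09 averaged −0.24 ± 0.14 (SD, n = 4), a limma unadjusted p of 0.000728 and an adjusted p of 0.0641. The difference did not pass the correction. Where each gene was represented by the mean over its probes, the same ratio had a limma adjusted p of 0.0426. That setting has fewer tests, and what lowered the value was not tested. In the other 12 of 13 alternative settings the adjusted p of Gfi1 was not under 0.05, and it reached 0.457 without the dye term.

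Atoh1 and Pou4f3 did not differ beyond the spread between arrays. Atoh1 was at log2 levels of 12.13, 12.38, 12.06 and 12.01 in control pools and 12.36, 12.12, 12.21 and 12.06 in Sox2-Tbx2LOF pools. The genotypes overlapped fully, and the ratio was below 0 on array 2 and above 0 on the other 3 arrays. Its mean log2 ratio was 0.04 ± 0.21 (SD, n = 4), with a 95% confidence interval from −0.10 to 0.18. Pou4f3, a POU-homeodomain factor that keeps hair cells alive, was at 9.34, 9.42, 9.41 and 9.23 in control pools. In Sox2-Tbx2LOF pools Pou4f3 was at 9.29, 9.45, 9.46 and 9.16. Levels went along with the array rather than the genotype, and the mean log2 ratio was −0.01 ± 0.06 (SD, n = 4), with an interval from −0.12 to 0.10.

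Barhl1, a homeodomain factor of hair cell survival, reached an unadjusted p of 0.0372 with a limma adjusted p of 0.626. Its log2 ratios were 0.27 and 0.40 on arrays 1 and 3 and −0.12 and −0.06 on arrays 2 and 4, so that the sign followed the dye. A second Barhl1 probe had log2 ratios of −0.18, 0.19, 0.12 and 0.16, with a mean of 0.07 ± 0.17 (SD, n = 4). It was below 0 on array 1, where the brighter probe was above 0. Lhx3, a LIM-homeodomain factor expressed in hair cells, averaged a log2 ratio of −0.01 ± 0.13 (SD, n = 4).

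**Figure D2:**
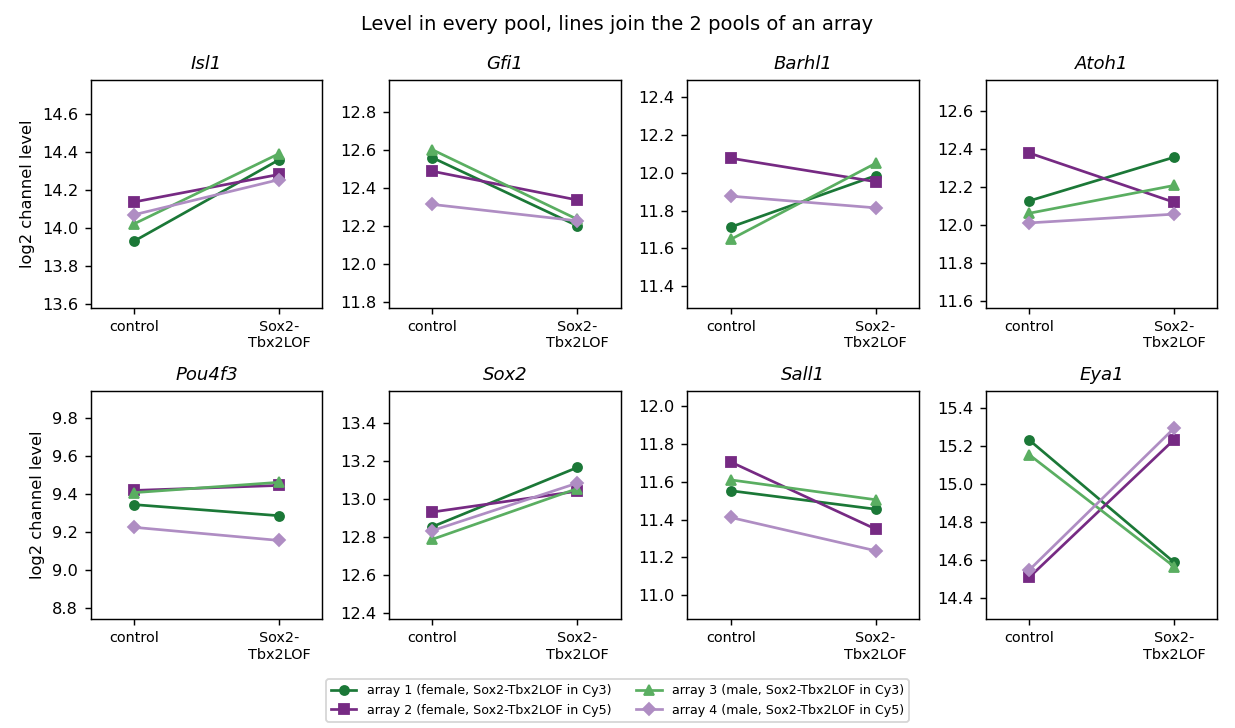
Log2 channel level of 8 members in every pool (vertical axis, 1.2 log2 units in each panel), with the control and the Sox2-Tbx2LOF pool of an array joined by a line. For Isl1 and Sox2 all Sox2-Tbx2LOF pools lie above all control pools. For Eya1 the lines of arrays 1 and 3 fall and those of arrays 2 and 4 rise.

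The Rfx factors are winged-helix proteins that act in ciliated cells and in the maturation of OHCs. None of the 3 had an unadjusted p under 0.05. Rfx3 had the largest difference, with log2 levels of 8.69, 8.42, 8.66 and 8.81 in control pools and 8.43, 8.51, 8.63 and 8.59 in Sox2-Tbx2LOF pools. Array 2 alone had the higher level in Sox2-Tbx2LOF, and the mean log2 ratio was −0.11 ± 0.16 (SD, n = 4). The other 2 Rfx3 probes were at −0.01 and 0.01. Rfx1 averaged 0.01 ± 0.07 and Rfx2 −0.06 ± 0.08 as log2 ratios (SD, n = 4 each).

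Among the prosensory and growth regulators, Sox2, which marks prosensory progenitors and supporting cells and carries the knock-in, stood apart from the others. Its log2 channel level was 12.85, 12.93, 12.79 and 12.83 in control pools and 13.17, 13.04, 13.06 and 13.08 in Sox2-Tbx2LOF pools. All Sox2-Tbx2LOF pools lay above all control pools. The mean log2 ratio of Sox2 was 0.23 ± 0.09 (SD, n = 4), 1.18-fold higher (95% confidence interval 1.09 to 1.27), but the limma adjusted p of 0.0876 did not pass the threshold. Over the 13 alternative settings its ratio lay between 0.20 and 0.27, with no adjusted p under 0.05. Whether the transcript of the knock-in allele contains the probe sequence was not analysed here. None of the 8 supporting cell markers was called or had an adjusted p under 0.05, and their median log2 ratio was 0.02. The limma unadjusted p was below 0.05 for 2 of the 8 (25%), against 7.11% of all tested probes.

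Sox9, which acts with Sox2 in the otic epithelium, had log2 ratios of 0.04, 0.06, 0.02 and 0.30, a mean of 0.10 ± 0.13 (SD, n = 4). The size of this mean came mainly from array 4. Mycl was also above 0 on 4 of 4 arrays, at a mean of only 0.03 ± 0.02 (SD, n = 4). Sox21 was at −0.04 ± 0.07 and Emx2, which orients hair bundles in the vestibular maculae, at 0.08 ± 0.14. Mycn, a regulator of growth in the otic epithelium, was at −0.11 ± 0.30, with ratios of −0.46 and −0.22 on the Cy3 arrays and 0.24 and 0.02 on the Cy5 arrays.

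In the otic placode and cochlear identity network, 9 of 10 genes were tested and none had an adjusted p under 0.05. Sall1, a zinc finger factor of ear and kidney development, had the largest difference. It was at log2 levels of 11.55, 11.70, 11.61 and 11.41 in control pools and 11.45, 11.35, 11.50 and 11.24 in Sox2-Tbx2LOF pools. The Sox2-Tbx2LOF pool was lower on each array, while the groups overlapped between arrays. The mean log2 ratio of Sall1 was −0.18 ± 0.12 (SD, n = 4), with a limma unadjusted p of 0.00645 and an adjusted p of 0.237. Its relative Sall3 was at −0.07 ± 0.08 (SD, n = 4) and was below 0 on 3 of 4 arrays.

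Gata3, a zinc finger factor required for cochlear development, did not pass the test. Its log2 level was 15.43, 15.41, 15.27 and 15.22 in control pools and 15.44, 15.34, 15.50 and 15.18 in Sox2-Tbx2LOF pools. The groups overlapped, and its mean log2 ratio was 0.03 ± 0.14 (SD, n = 4), with a 95% confidence interval from −0.09 to 0.16. Pax2 was at 0.01 ± 0.03 and Lmx1a, which marks non-sensory epithelium, at −0.04 ± 0.12. The Pax2 probe was dim, at mean log2 levels of 6.68 in Sox2-Tbx2LOF and 6.67 in control pools. It was well above background on 4 of 4 arrays in Sox2-Tbx2LOF pools and on 3 of 4 in control pools. The processing shrinks the ratios of dim probes. Over 13 alternative settings the log2 ratio of Pax2 ran from −0.01 to 0.09. Eya4, a cofactor of homeodomain proteins, had a mean of 0.03 ± 0.19 and Six4 of 0.01 ± 0.39.

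Eya1, a relative of Eya4 required from the start of ear development, had the widest spread of all members. Its log2 ratios were −0.64 and −0.59 on arrays 1 and 3 and 0.73 and 0.75 on arrays 2 and 4. The probe gave the higher signal in Cy5 on every array, whichever genotype was labelled with it. The dye term for Eya1, the ratio with Sox2-Tbx2LOF in Cy5 minus that in Cy3, was 1.35 with a limma adjusted p of 0.000202. It was the only member with an adjusted p under 0.05 for dye (3.03%), against 3.69% of all tested probes. With the dyes balanced, the mean log2 ratio of Eya1 was 0.06, with a 95% confidence interval from −0.05 to 0.17.

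**Figure D3:**
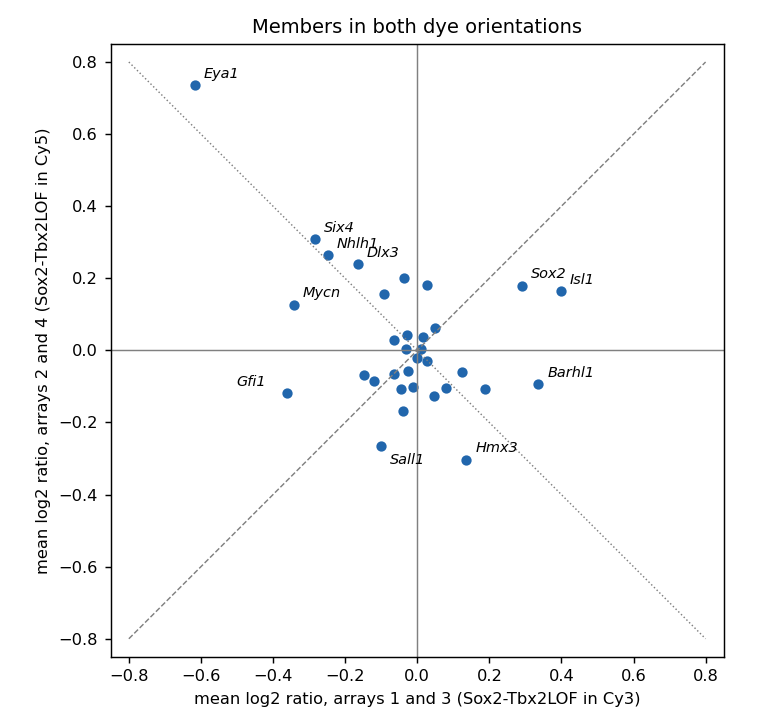
Mean log2 ratio of Sox2-Tbx2LOF over control on the arrays with Sox2-Tbx2LOF in Cy3 (horizontal axis) and in Cy5 (vertical axis) for the 33 tested members, 1 point per gene. Points on the dashed line have the same ratio in both orientations, and points on the dotted line have ratios of opposite sign and equal size. Eya1 lies far out near the dotted line, while Isl1, Sox2, Gfi1 and Sall1 have the same sign in both orientations.

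Six2 was the member whose probes differed most. The brightest probe had log2 levels of 14.84, 14.87, 14.74 and 14.78 in control pools and 14.75, 14.67, 14.76 and 14.65 in Sox2-Tbx2LOF pools. Its mean log2 ratio was −0.10 ± 0.09 (SD, n = 4), with a limma adjusted p of 0.787, and the second probe was at −0.04 ± 0.19. At the probe for AK142139 the levels were 10.01, 9.88, 9.53 and 9.40 in control pools and 9.61, 9.25, 9.34 and 9.13 in Sox2-Tbx2LOF pools. That probe was lower in Sox2-Tbx2LOF on each array, with overlap between arrays. Its log2 ratios of −0.40, −0.63, −0.19 and −0.27 averaged −0.37 ± 0.19 (SD, n = 4), with a limma adjusted p of 0.0498. Counting every tested probe, 2 of the 41 member probes (4.88%) had an adjusted p under 0.05, this one and that of Isl1, against 0.982% of all tested probes. The adjusted p of this Six2 probe was not under 0.05 in 9 of 12 alternative settings and ran from 0.00106 to 0.892, while the ratio stayed between −0.46 and −0.28. It was singled out after its values were seen. Six2 is also known from the mesenchyme around the ear. Of 6 mesenchyme markers, 5 had a log2 ratio above 0 and none had an adjusted p under 0.05, with a median of 0.12. The limma unadjusted p was below 0.05 for 3 of the 6 (50%), against 7.11% of all tested probes. The log2 of the summed level of all 6 was 17.64 to 17.72 in Sox2-Tbx2LOF pools and 17.43 to 17.67 in control pools. Its part in the Six2 values was not tested.

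The other 5 genes with more than 1 tested probe had mean log2 ratios between −0.11 and 0.12 at all their probes. For Otx2 the means were −0.10 and −0.04, for Sox21 −0.04 and −0.01, and for Nhlh1 0.01 and 0.08. The signs agreed between probes for Barhl1, Nhlh1, Otx2 and Sox21 and differed for Rfx3. Probes of a gene can match different transcripts, and their levels cannot be set against each other.

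**Figure D4:**
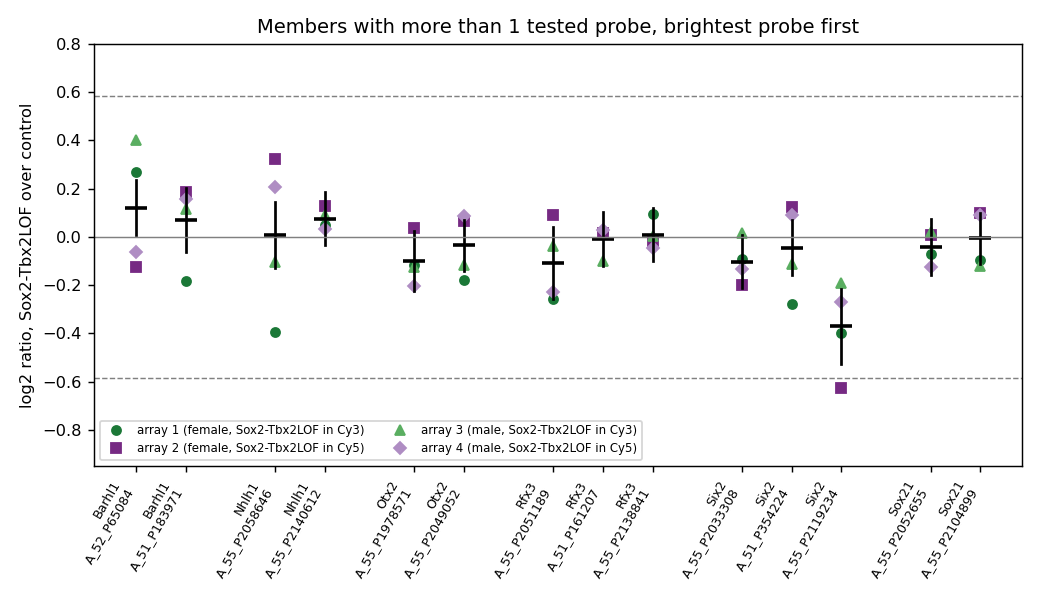
Log2 ratio of Sox2-Tbx2LOF over control (vertical axis) at each of the 14 tested probes of the 6 members with more than 1 tested probe, brightest first. Symbols are arrays, black ticks are means of 4 arrays, black lines 95% confidence intervals and dashed lines a 1.5-fold change. The dimmest Six2 probe, with a mean of −0.37, is the lowest of the 14.

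The regional factors of the vestibular and non-sensory ear had 6 of 9 genes tested, and none had an unadjusted p under 0.05. Otx2, a homeodomain factor of the cochlear roof, had the largest difference. It was at log2 levels of 13.29, 13.13, 13.32 and 13.26 in control pools and 13.18, 13.17, 13.20 and 13.06 in Sox2-Tbx2LOF pools, with overlap. Its mean log2 ratio was −0.10 ± 0.10 (SD, n = 4), below 0 on 3 of 4 arrays. Among 4 tested markers of the cochlear roof and stria vascularis, none was called, and their median log2 ratio was −0.06. Hmx2 and Hmx3, which pattern the vestibular system, were at −0.08 ± 0.21 and −0.08 ± 0.27. Dlx3 was at 0.04 ± 0.26. The Iroquois factors Irx3 and Irx5 were at −0.02 ± 0.09 and −0.001 ± 0.17 (SD, n = 4 each).

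Of the neurogenic bHLH factors, 3 of 4 were tested and none had an unadjusted p under 0.05. Nhlh2 had the largest difference, with log2 levels of 7.60, 7.60, 7.50 and 7.36 in control pools and 7.63, 7.60, 7.57 and 7.49 in Sox2-Tbx2LOF pools. Its mean log2 ratio of 0.06 ± 0.05 (SD, n = 4) went with overlapping groups. Nhlh1 was at 0.01 ± 0.32 and Neurod1 at −0.01 ± 0.09. Neurod1 was well above background on 3 of 4 arrays in Sox2-Tbx2LOF pools and on 2 of 4 in control pools. Its probe was dim, at mean log2 levels of 6.61 in Sox2-Tbx2LOF and 6.62 in control pools, where the processing shrinks ratios. Over 12 alternative settings the log2 ratio of Neurod1 ran from −0.09 to 0.04.

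The 5 members left untested were dim in both genotypes. Pax8, Dlx6 and Otx1 were not well above background on any array in either genotype. Dlx5 was well above background on 2 of 4 arrays in each genotype. Neurog1, the factor that starts otic neurogenesis, was well above background on 1 of 4 arrays in Sox2-Tbx2LOF pools and on none in control pools. For these genes no ratio is given.

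Sex made no difference to the effect of genotype that could be detected with 2 arrays per sex. None of the 33 members had an unadjusted p under 0.05 for the sex by genotype term of limma, against 2.01% of all tested probes. This count covers the brightest probe of each gene. At the Six2 probe for AK142139 the mean log2 ratio was −0.51 on female and −0.23 on male arrays (limma unadjusted p 0.0356), a difference that did not pass the correction. No probe of the array passed the correction for this term. The male minus female difference of the ratios ran from −0.12 for Otx2 to 0.19 for Dlx3. For the level over both genotypes, Atoh1 was 0.16 lower on the log2 scale in male arrays (limma unadjusted p 0.0381, adjusted p 0.691). Rfx3 was 0.16 higher in male arrays (limma unadjusted p 0.0435, adjusted p 0.691). These 2 of 33 members (6.06%) stand beside 7.03% of all tested probes. The level at the Six2 probe for AK142139 differed by −0.34 between male and female arrays (limma unadjusted p 0.0105, adjusted p 0.691). None of the 3 probes passed the correction, which 0.0463% of all tested probes did.

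Regulators outside the 38 genes were read in lists. Of 52 relatives from the same gene families, 38 were tested, 0 were called and 0 had an adjusted p under 0.05. Over all tested probes these shares were 0.249% and 0.982%. The limma unadjusted p was below 0.05 for 8 of the 38 relatives (21.1%), against 7.11% of all tested probes. Of the 38 relatives, 11 had a log2 ratio above 0 and 27 below 0, with a median of −0.02. The smallest p-values among them were those of Pax3, a paired-box factor, and Neurod2, a neuronal bHLH factor. Pax3 was at −0.28 ± 0.10 (SD, n = 4, limma adjusted p 0.0683). Neurod2 had log2 ratios of 0.06, −0.65, −0.63 and −0.62, with a limma adjusted p of 0.0875, so that array 1 stood apart from the others. It was called lower when array 1 was left out.

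All 34 other inner ear regulators were tested, 0 were called and 2 had an adjusted p under 0.05, with a median log2 ratio of 0.02. These 2 of 34 genes are 5.88%, against 0.982% of all tested probes. The limma unadjusted p was below 0.05 for 7 of the 34 (20.6%), against 7.11% of all tested probes. Hey2, a bHLH repressor, had log2 ratios of 0.26, 0.41, 0.23 and 0.25. It rose by 0.29 ± 0.08 (SD, n = 4, limma adjusted p 0.0411) and was higher on 4 of 4 arrays. Etv4, an ETS factor downstream of FGF signals, had log2 ratios of −0.10, −0.48, 0.02 and −0.53. It fell by this test at a mean of −0.27 ± 0.27 (SD, n = 4, limma adjusted p 0.0479), with the ratio below 0 on 3 of 4 arrays and farthest from 0 on the 2 arrays with Sox2-Tbx2LOF in Cy5.

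The promoters of the members were compared by sequence alone. In the RefSeq table of build GRCm38.p6, 42 promoters of 29 of the 38 members were found, taken as the 250 bases before the gene start. Without an entry were Dlx3, Dlx5, Dlx6, Eya1, Irx5, Otx1, Pou4f3, Sall3 and Sox9. The median GC content of the 42 promoters was 61.4%, beside 52.4% over all 32851 promoters of the table. The T-box site GGTGTGA was searched on both strands. It occurred in 0 of the 42 promoters, against 3.33% of all promoters of the same length. This says only that these letters are not in these windows.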

How the data were processed

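Spot intensity was taken from the deposited scanner files without any normalization by the authors, whose processing notes name Agilent Feature Extraction 10.7.3.1. A log10 ratio of the software's processed signals is also deposited, and the authors' series matrix gives another value, a fold change with a sign. Both served as alternatives. The steps behind the matrix are not given in the sources used here, and its direction was read from its correlation with the scanner ratios across tested probes (r 0.937 to 0.954).

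Background was corrected with normexp in limma 3.58.1 (R 4.3.3, offset 50), and ratios were normalized within arrays by loess. Control spots and flagged spots were left out, and the 4 spots of a probe were averaged. Loess assumes that most probes do not change, and the offset shrinks the ratios of dim probes. Channel levels are log2 signals after loess and quantile normalization of average brightness between arrays. A probe was tested where more than 0.5 of its spots were well above background on at least 3 of 4 arrays in either genotype. No spot was saturated. Ratios were fitted with lmFit and eBayes with a dye term and Benjamini-Hochberg adjustment over all 28104 tested probes, and all p-values are two-sided. The script was tested on simulated data. The study's methods name an unpaired Significance Analysis of Microarrays. Here the ratio within an array was the main value, since both pools of a number share an array and a sex. The deviations of same-numbered pools from their group means correlated with r of 0.321, −0.334, 0.0879 and 0.212. An unpaired limma fit without the replicate block was an alternative. The other alternatives concerned background, offset, centring, filter, dye term, minimum fold, probe choice and leaving out each array. The number of arrays limits precision.

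Given in full were members with an unadjusted p under 0.05, the member with the largest difference in each role, Sox2, Atoh1, Pou4f3, Gfi1 and Tbx2, and from the regulator lists the 2 genes with the smallest p. Lists of markers of glia, mesenchyme, blood, melanocytes, endothelium and OHCs had 0 called genes each, against 0.249% of all tested probes. The limma unadjusted p was below 0.05 for 2 of 5 tested OHC markers (40%), against 7.11% of all tested probes. Of these 5, 3 had a log2 ratio above 0 and 2 below 0, and the OHC marker Slc26a5 was not tested. The same p held for 1 of 5 glial, 3 of 6 mesenchyme and 1 of 4 melanocyte markers. It held for 0 of 4 blood and 0 of 4 endothelial markers. Members and lists were chosen with earlier results of these data known. Pools are independent according to the study's methods.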

Additional observations from a re-analysis of the deposited data

Results flagged for a closer look

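A group of 4 values was examined for 1 sample far from the others, by the gap to its nearest neighbour over the whole range of the group against the critical value of Dixon's test. Chance exceeds that value in about 5% of groups, and 2 of 99 groups (2.02%) did here. The Sox9 log2 ratio was 0.30 on array 4 and 0.02 to 0.06 on the other arrays (gap over range 0.853). The Irx3 log2 level was 15.89 in the control pool of array 1 and 15.70 to 15.72 in the other control pools (gap over range 0.918). The cause was not tested in either case.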

How the results depend on the processing

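No member was called under any alternative with a minimum fold, and 1 (Isl1) was called without it. The count of members with an adjusted p under 0.05 was 1. It became 0 with the scanner software's log ratio, with offset 0, without the dye term and with the series matrix, and it was 0 to 1 when arrays were left out in turn. With the mean over probes, 2 members (Gfi1 and Isl1) had an adjusted p under 0.05. In the unpaired fit, without the replicate block, it remained 1 and probes called over the whole array numbered 57. Against 70 called probes in the main analysis, the scanner software's log ratio gave 124, the series matrix 1, no minimum fold 276, and leaving out arrays 66 to 106, the highest without array 1. Genes of the regulator lists called were 0, but 1 with the scanner software's log ratio (Pax3) and 0 to 1 when arrays were left out (Neurod2 without array 1, Sox3 without array 4). Both sex terms had 0 members past the correction under every alternative run. Of 428 values of single members under 13 alternatives, 417 kept their side of the threshold and moved by less than the spread between arrays. None of the 5 members with an unadjusted p under 0.05 changed sign, and 14 others did under at least 1 setting. Isl1 kept its direction in all 13 but its adjusted p rose above 0.05 in 7, and the cause was not tested. The Six2 probe for AK142139 was added to the alternatives after the data were seen. Significance Analysis of Microarrays itself was not run.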
